A study of Mus musculus with 20 samples.

Results

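The antisense lncRNA genes expressed at a moderate level in mouse liver numbered 330, of 1966 antisense lncRNA genes, 15558 lncRNA genes and 36128 genes whose level was listed. They were chosen by a measured value. Each has an identifier marked as antisense, lies outside chromosomes X and Y, and had a mean FPKM over the 20 livers of at least 0.1 and under 1. FPKM is a fragment count scaled by exon length and by sequencing depth, so it is a level per length. The mean FPKM, which selected the genes, is given as a description and was not tested. Of the other antisense genes, 1440 had a mean above 0 and under 0.1, 42 had a mean of 1 or more, 116 were listed at 0 throughout and 38 lie on X or Y. Nearest inside the lower limit were lnc5124 at 0.1002, lnc10075 at 0.1003 and lnc9759 at 0.1004, and nearest outside it were lnc12705 at 0.0999, lnc13512 at 0.0997 and lnc8274 at 0.0996. Nearest inside the upper limit were lnc7260 at 0.997, lnc13630 at 0.976 and lnc7528 at 0.971, and nearest outside it were lnc5911 at 1.01, lnc10627 at 1.02 and lnc2750 at 1.03. An identifier holds the type, the chromosome and a running number, from which the short name is made, and no position in the mm9 genome. The gene opposite each antisense lncRNA and the sequences were therefore not analysed here.

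Antisense lncRNAs are transcribed from the strand opposite to another gene, often across its exons or its promoter, and do not code for protein. Some are known to act on that gene, by interfering with its transcription, by recruiting chromatin modifiers or by pairing with its RNA, while for many no function is known. In rodent liver, many genes are expressed at different levels in males and females, largely under the control of a sex-dependent rhythm of pituitary growth hormone release.

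The study compared whole liver of male and female mice of the strains C57BL/6J (B6), a classical inbred laboratory strain, and CAST/EiJ (CAST), an inbred strain derived from wild mice. PolyA RNA was sequenced from 20 mice of 8 weeks of age from Jackson Labs, 5 B6 males, 5 B6 females, 5 CAST males and 5 CAST females, with 1 library per mouse. No treatment, transgene or mutation is named for any group. Livers are numbered 1 to 5 within a group as in the library titles, and values below are given in that order. Groups follow those titles, since a separate strain entry of the labels names the other strain for all 5 B6 females and all 5 CAST males. Total counts per liver ranged from 7969482 to 35328573, and the 330 genes took 0.0904% to 0.156% of them. All 10 hepatocyte markers on the list used here were detected, with albumin (Alb) at a median FPKM of 12766 in CAST males to 20898 in B6 females. The 4 Y-linked genes meant as a check of sex were listed at 0 in all 20 livers. Cyp2b9, a steroid hydroxylase of female liver that was picked after its values were seen, stood at 0 to 1.66 FPKM in males and at 111 to 192 FPKM in females. B6 female 2 stood apart from the other B6 females in the antisense genes: its summed FPKM over the 330 genes was 110, against 83.9 to 98.8 in the other 4. Its Cyp2b9 level, 111 FPKM, was the lowest of the 10 females, with the others at 124 to 192 FPKM and all males far below.

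The library kit keeps the strand, but whether the counting used it is not given in the sources used here. Without it, reads of an antisense lncRNA and of the gene opposite cannot be told apart, and this holds for every value below. In bulk liver, fewer cells expressing a gene and less RNA per cell cannot be told apart either. Counts were low: the mean count per liver had a median of 30.2 over the 330 genes, 57 genes had a mean under 10 and 56 had a mean of 100 or more. Between 5 and 31 of the 330 genes had no read in a given liver.

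The 330 genes were spread over all 19 autosomes, from 8 on chromosome 13 to 27 each on chromosomes 2 and 11. Their mean FPKM had a median of 0.194, with quartiles of 0.138 and 0.327. Counts and FPKM together imply an exon length with a median of 8252 bases and quartiles of 3562 and 15886 bases. The coefficient of variation of the FPKM over the 20 livers ranged from 14.8% to 220%, with a median of 58.3%. In 152 genes the mean of every group reached 0.1. In 44 genes it was under 0.1 in both B6 groups only, and in 69 in both CAST groups only. The other 65 had another combination, and 27 of the 330 had a group mean above 1.

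The levels of the set were compared between strains and sexes. Summed FPKM over the 330 genes averaged 110 ± 2.68 (SD over 5 livers) for males and 93.7 ± 10.8 for females of B6, and 79.7 ± 5.31 for males and 77.5 ± 4.91 for females of CAST. Every B6 male liver lay above every CAST liver, the B6 females overlapped the CAST livers, and among B6 females only replicate 2 reached the range of the B6 males. In a principal component analysis of log2(FPKM + 0.1), the component with 48.4% of the variance placed the B6 livers at 9.28 to 14.1 and the CAST livers at -12.9 to -11.6. The next component, with 8.71%, placed all males at 2.01 to 8.43 and all females at -9.49 to -1.04. For the median gene, strain took up 50.1% of the sum of squares of log2(FPKM + 0.1), sex 4.49%, their interaction 1.73% and the spread within groups 34.9%. The rule fixed part of the share of strain, since 69 genes were under the FPKM limit in both CAST groups only and 44 in both B6 groups only. Over the 152 genes at 0.1 FPKM or more in all groups, the median shares were 25.6% for strain, 4.77% for sex, 2.37% for the interaction and 54.9% within groups, and the leading component placed the B6 livers at 3.12 to 5.47 and the CAST livers at -5.02 to -4.06. The median shares for strain were 45.9% in 850 intergenic lncRNA genes and 41.5% in 3515 protein-coding genes of the same FPKM range, and no test was made between these classes.

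**Figure D1:**
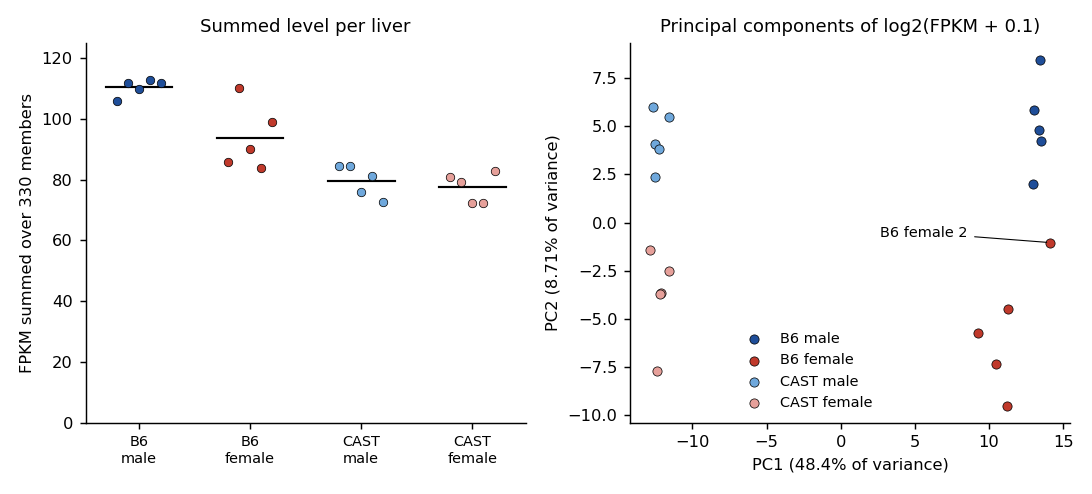
Left, FPKM summed over the 330 genes for each liver, with a point per liver and a line at the group mean. Right, the livers on the leading principal components of log2(FPKM + 0.1), where the B6 livers sit at 9.28 to 14.1 on PC1 and the CAST livers at -12.9 to -11.6, and B6 female 2, at -1.04 on PC2, lies nearest to the males.

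The steadiest antisense lncRNAs varied little from liver to liver, with coefficients of variation of 14.8% to 18.1% over all 20 livers. The gene lnc5123 on chromosome 6 varied least. Its FPKM in B6 was 0.943, 0.744, 1.07, 1.04 and 1.18 for males and 0.634, 0.992, 0.875, 0.969 and 0.753 for females. In CAST it was 0.905, 1.10, 0.898, 1.09 and 0.868 for males and 0.802, 0.962, 0.886, 0.790 and 1.00 for females. All 4 groups overlapped. The next were lnc5991 on chromosome 7 at 15%, lnc14267 on chromosome 18 at 17.3%, lnc5237 on chromosome 6 at 18.1% and lnc13630 on chromosome 17 at 18.1%. None of these 5 was called in any comparison.

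At the other end, several genes varied mostly through a few livers. For lnc14073 on chromosome 17, with a coefficient of variation of 180%, the CAST males stood at 0.168, 0.0981, 0.0383, 0.293 and 0.765 FPKM and the CAST females at 0.125, 0.0357, 1.16, 0.835 and 0.0302. The 10 B6 livers lay between 0 and 0.0542. A wide spread among the CAST livers of either sex thus stood beside uniformly low B6 livers. In lnc1343 on chromosome 2, at 133%, B6 male 2 had 1.02 FPKM, while the other B6 males had 0.0152 to 0.0313. In lnc8393 on chromosome 9, at 156%, B6 female 5 had 0.794 FPKM, and the other B6 females had 0.0556 to 0.268. The same liver was highest in lnc4694 on chromosome 5, with 0.861 FPKM against 0.159 to 0.369. In lnc6048 on chromosome 7, B6 female 2 had 0.597 FPKM, against 0.113 to 0.229 in the other B6 females.

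Sex differences in B6 liver touched 25 of 324 antisense lncRNAs with counts, and most of these were higher in males. A gene was called when its fold change was above 2 and its adjusted p under 0.05 by the quasi-likelihood test of edgeR, adjusted over all genes by Benjamini-Hochberg. Of the 25 genes, 21 were male-biased and 4 female-biased. Over all 25690 genes, 2.4% were called, 1.16% as male-biased and 1.24% as female-biased. Among the antisense genes the shares were 7.72%, 6.48% and 1.23%. The FPKM rule bears on these shares, since 12 of the 21 male-biased genes were among the 69 that were under 0.1 FPKM in both CAST groups only. Among the 152 genes at 0.1 FPKM or more in all groups, 4 were male-biased and 1 female-biased (3.29%). The share over all genes carries no such filter on the group means, so the 2 shares are not alike in kind. In the same FPKM range, 2.62% of 801 intergenic lncRNA genes and 1.45% of 3450 protein-coding genes were called male-biased. Of 42 antisense genes at 1 FPKM or more, 5 were male-biased, and of 1291 under 0.1 FPKM, 32 were. The median log2 fold change, male over female, was 0.14 over the 324 genes and 0.02 over all genes. The male-biased genes lay on 12 chromosomes, their fold changes had a median of 2.55, and in 6 of the 21 the livers of the sexes did not overlap in FPKM. Over all genes, all males lay above all females in 3.98%, and in 68.8% of the 298 called male-biased.

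The steepest male bias in B6 was that of lnc7359 on chromosome 8. Its FPKM was 0.326, 0.431, 0.511, 0.409 and 0.255 in B6 males and 0.0261, 0.197, 0.0307, 0.0693 and 0.184 in B6 females. The lowest male lay above the highest female. The log2 fold change was 1.90 (SE 0.41, adjusted p = 0.00741). In lnc3532 on chromosome 4, the B6 males had 0.193, 0.504, 0.348, 0.459 and 0.290 FPKM and the B6 females 0.0667, 0.192, 0.110, 0.0749 and 0.0615. Here too the groups did not overlap, and the log2 fold change was 1.84 (SE 0.29, adjusted p = 0.000449). Similar sizes were found for lnc7637 on chromosome 8, at 1.47 (adjusted p = 0.0147), and lnc14713 on chromosome 19, at 1.46 (adjusted p = 0.00647). In lnc14713 the males had 0.235, 0.444, 0.394, 0.492 and 0.420 FPKM and the females 0.0843, 0.334, 0.108, 0.0951 and 0.101. All 5 males were above 4 of the females, and B6 female 2 lay within the male range. With thinned counts the calls of lnc7359 and lnc7637 were lost (adjusted p = 0.0647 and 0.0625). The call of lnc6302 on chromosome 7, at 1.45 (adjusted p = 0.0484), depended on single livers. It was lost without B6 female 1, 3 or 4 and without B6 male 1 or 5, with adjusted p of 0.0713 to 0.15, and was kept in 9 of the 20 alternatives tried.

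The 4 female-biased genes of B6 liver were lnc4370, lnc12584, lnc10170 and lnc11421. In lnc4370 on chromosome 5, B6 males stood at 0.163, 0.0498, 0.161, 0.109 and 0.173 FPKM and B6 females at 0.314, 0.527, 0.322, 0.528 and 0.397. The females lay well above the males with no overlap, and the log2 fold change was -1.66 (SE 0.26, adjusted p = 0.000382). In lnc11421 on chromosome 13, B6 males had 0.151, 0.0939, 0.105, 0.0884 and 0.207 FPKM and B6 females 0.335, 0.411, 0.363, 0.377 and 0.176. Only B6 female 5 fell within the male range, and the log2 fold change was -1.34 (SE 0.28, adjusted p = 0.00536). In CAST liver this gene lay at 0 to 0.0251 FPKM in all 10 livers.

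Markers of other liver cell types differed between the same B6 groups. The summed FPKM of 10 of 11 Kupffer cell markers found in the table was 28.7 to 55.2 in B6 males and 59.5 to 72.4 in B6 females. For the 8 endothelial markers it was 22.5 to 26.3 and 28.3 to 36.4, for the 7 stellate cell markers 20.6 to 31.2 and 34.9 to 39.9, for the 7 lymphocyte markers 1.01 to 1.52 and 1.66 to 3.70, and for the 10 hepatocyte markers 21197 to 22800 and 27056 to 32252. Most of the hepatocyte sum was Alb, at 13550 to 14276 FPKM in B6 males and 19881 to 24101 in B6 females. The direction of the sum therefore need not hold for the other hepatocyte markers. Cholangiocyte markers overlapped, at 7.33 to 24.6 and 5.81 to 13.3. Of the 5 red blood cell markers, the 4 globin genes Hba-a1, Hba-a2, Hbb-b1 and Hbb-b2 were listed at 0 in all livers, so that the sum, 26.9 to 36.5 in B6 males and 2.83 to 5.42 in B6 females, was that of Alas2. The part of these differences in the sex differences above was not tested.

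In CAST liver, 19 of 328 antisense lncRNAs were called, 11 as male-biased and 8 as female-biased. Over all 24722 genes, 2.05% were called, 0.882% as male-biased and 1.17% as female-biased, against 5.79%, 3.35% and 2.44% of the antisense genes. Among the 152 genes at 0.1 FPKM or more in all groups, 1 was male-biased and 4 were female-biased (3.29%). With scaling by library size alone, 18 were called with a split of 14 to 4. This scaling moved the median of all genes by 0.09 on the log2 scale, and 1.07% of all genes were then called male-biased and 1.06% female-biased. Intergenic lncRNA genes of the same range had 2.4% male-biased and 2.75% female-biased among 835, and protein-coding genes 1.6% and 1.84% among 3427. The median log2 fold change was 0.01 over the 328 genes and -0.01 over all genes. In 8 of the 11 male-biased and 4 of the 8 female-biased genes, the FPKM of the sexes did not overlap. Over all genes, this held for 79.4% of the 218 called male-biased and 82.1% of the 290 called female-biased, and for 4% and 2.43% of all genes tested. Summed marker levels in CAST males and females were 9.70 to 22.4 and 14.1 to 42.0 FPKM for Kupffer cells, 15.3 to 24.9 and 19 to 51.1 for endothelial cells and 18289 to 20257 and 22199 to 27735 for hepatocytes, and their part was not tested. Here too most of the hepatocyte sum was Alb, at 12150 to 13828 FPKM in CAST males and 16094 to 20605 in CAST females.

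Among the male-biased genes of CAST liver, lnc7528 on chromosome 8 had the highest level. CAST males stood at 0.605, 0.765, 0.686, 0.665 and 1.41 FPKM and CAST females at 0.112, 0.116, 0.226, 0.0572 and 0.0257. The lowest male was above the highest female, and the log2 fold change was 2.77 (SE 0.35, adjusted p = 2.47e-05). In B6 the same gene stood at 1.96, 1.6, 1.49, 2.59 and 1.04 FPKM in males and 0.839, 3.48, 0.816, 0.413 and 0.510 in females. Here 4 of the 5 females lay below every male, and B6 female 2, at 3.48, lay above all of them, so that the log2 fold change was 0.52 (SE 0.43, adjusted p = 0.525). In lnc8962 on chromosome 10, CAST males had 0.143, 0.309, 0.133, 0.166 and 0.313 FPKM and CAST females 0.0641, 0.0663, 0.0777, 0.0150 and 0.0280. The groups did not overlap, with a log2 fold change of 1.90 (SE 0.34, adjusted p = 0.00147), while in B6 it was 0.01 (SE 0.35, adjusted p = 0.990).

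The female bias of CAST liver was largest in lnc13511 on chromosome 16, which is described with the interaction. In lnc9385 on chromosome 10, CAST males had 0.413, 0.340, 0.202, 0.261 and 0.322 FPKM and CAST females 0.650, 0.930, 0.921, 1.5 and 0.595. All females lay above all males, and the log2 fold change was -1.68 (SE 0.24, adjusted p = 0.000118). In lnc1343 the CAST males had 0.140, 0.0946, 0.0378, 0.144 and 0.189 FPKM and the CAST females 0.452, 0.199, 0.506, 0.228 and 0.202. Again the sexes did not overlap, with a log2 fold change of -1.61 (SE 0.35, adjusted p = 0.00668), a call that was kept in 16 of 20 alternatives and lost, among others, with limma at both pseudocounts (adjusted p = 0.123 and 0.116). Smaller and less stable calls were those of lnc7879 on chromosome 9, at -1.41 (adjusted p = 0.0378), and lnc14973 on chromosome 19, at -1.06 (adjusted p = 0.0234). The former was kept in 5 of 18 alternatives and was lost without CAST male 1, 2, 4 or 5 and without CAST female 1, 3, 4 or 5, at adjusted p of 0.0570 to 0.107. The latter was kept in 11 of 20 and was lost without CAST male 2 or 3 and without CAST female 4 or 5, at 0.0543 to 0.0719.

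In both strains, 6 of the 322 antisense lncRNAs tested in each were called sex-biased, all in the same direction. Over all 22605 genes tested in each strain, 0.854% were called in both, against 1.86% here. The FPKM rule bears on this share, since each of the 6 had a mean under 0.1 FPKM in at least 1 group. None of the 6 was thus among the 152 genes at 0.1 FPKM or more in all groups. The 6 genes were 24% of the B6 calls and 31.6% of the CAST calls, against 32.9% and 39.8% over all genes, of which 188 of the 193 called in both had the same direction. The count depended on the scale, since limma on log2 FPKM called 0 genes in both strains with a pseudocount of 0.1, 2 genes with 0.01, and 1 gene with 0.1 after a filter on mean FPKM. By limma with 0.1, 2 genes had an unadjusted p under 0.05 and a fold above 2 in both. The female-biased gene was lnc10170, and 5 were male-biased: lnc7521, lnc2474, lnc1579, lnc5921 and lnc2485.

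The female-biased gene, lnc10170 on chromosome 11, stood in B6 at 0.339, 0.0657, 0.110, 0.104 and 0.210 FPKM in males and 0.482, 0.320, 0.276, 0.418 and 0.893 in females. In CAST it stood at 0.0406, 0.0317, 0.0148, 0.0252 and 0.0480 FPKM in males and 0.276, 0.286, 0.154, 0.248 and 0.386 in females. The CAST groups lay far apart, while in B6 male 1 lay within the range of the females. The log2 fold change, male over female, was -1.5 in B6 (SE 0.38, adjusted p = 0.0204) and -3.21 in CAST (SE 0.30, adjusted p = 5.73e-07). The difference between these was not significant, with an interaction of 1.71 (SE 0.59, adjusted p = 0.142). The B6 call was lost without B6 female 5 (adjusted p = 0.0750) and without B6 male 3 (adjusted p = 0.0518), and with limma on log2(FPKM + 0.1), at -1.12 (adjusted p = 0.0692).

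Of the male-biased genes, only lnc7521 on chromosome 8 was not also called higher in B6 than in CAST males. B6 males had 0.563, 0.219, 0.414, 1.21 and 0.275 FPKM and B6 females 0.168, 0.264, 0.219, 0.154 and 0.0947. CAST males had 0.384, 0.245, 0.698, 0.370 and 0.221 FPKM and CAST females 0.0946, 0.0453, 0.0946, 0.0196 and 0.0171. In CAST all males lay above all females, and in B6 the lowest male lay among the females. Its log2 fold change was 1.58 in B6 (SE 0.37, adjusted p = 0.0113) and 2.61 in CAST (SE 0.36, adjusted p = 9.57e-05). The B6 call was lost with limma at both pseudocounts (adjusted p = 0.131 and 0.0928).

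The other 4 male-biased genes were far lower in CAST liver of either sex. In lnc2474 on chromosome 3, B6 males had 0.293, 0.651, 0.457, 0.496 and 0.434 FPKM and B6 females 0.124, 0.249, 0.206, 0.195 and 0.146. CAST males had 0.0519, 0.0521, 0.0779, 0.0750 and 0.0513 FPKM and CAST females 0.0205, 0.00632, 0.0131, 0.0343 and 0.0267. The males lay above the females in each strain with no overlap, and every CAST liver lay below every B6 liver. The male-over-female log2 fold change was 1.36 in B6 (SE 0.21, adjusted p = 0.000455) and 1.64 in CAST (SE 0.41, adjusted p = 0.0204). Without CAST female 2 or CAST male 3 the CAST call was lost (adjusted p = 0.0501 and 0.0632), as it was with limma on log2(FPKM + 0.01) (adjusted p = 0.0855).

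In lnc1579 on chromosome 2, B6 males stood at 0.313, 0.551, 0.583, 0.620 and 0.534 FPKM and B6 females at 0.158, 0.412, 0.148, 0.136 and 0.134. CAST males stood at 0.0810, 0.0548, 0.0536, 0.0503 and 0.0559 FPKM and CAST females at 0.0177, 0.0138, 0.0228, 0.0187 and 0.0146. The 4 groups formed a descending series, broken only by B6 female 2, which lay above B6 male 1. The log2 fold change was 1.40 in B6 (SE 0.27, adjusted p = 0.00315) and 1.63 in CAST (SE 0.28, adjusted p = 0.000940).

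In lnc5921 on chromosome 7, B6 males stood at 0.262, 0.280, 0.362, 0.340 and 0.440 FPKM and B6 females at 0.113, 0.313, 0.0990, 0.0721 and 0.109. CAST males stood at 0.0154, 0.0354, 0.0456, 0.0458 and 0.0228 FPKM and CAST females at 0.0106, 0.0109, 0.0163, 0.0118 and 0.0129. B6 female 2 was again the only female within the range of the B6 males, and CAST male 1 lay within the range of the CAST females. The log2 fold change was 1.25 in B6 (SE 0.29, adjusted p = 0.0116) and 1.37 in CAST (SE 0.32, adjusted p = 0.0128). The CAST call was lost with thinned counts (adjusted p = 0.0904) and with limma on log2(FPKM + 0.1), at 0.24 (adjusted p = 0.119), or log2(FPKM + 0.01), at 0.87 (adjusted p = 0.217).

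The highest of the 5 was lnc2485 on chromosome 3, at 1.08, 3.22, 2.69, 2.95 and 1.95 FPKM in B6 males and 0.944, 2.20, 1.14, 0.814 and 0.791 in B6 females. CAST males stood at 0.201, 0.151, 0.165, 0.164 and 0.337 FPKM and CAST females at 0.0646, 0.0427, 0.0990, 0.0638 and 0.101. The sexes overlapped in B6, through male 1 and female 2, and did not overlap in CAST. The log2 fold change was 1.02 in B6 (SE 0.28, adjusted p = 0.0301) and 1.37 in CAST (SE 0.31, adjusted p = 0.00900). The B6 value lay near both thresholds: the call was kept in 7 of 20 alternatives and was lost without B6 female 1, 3, 4 or 5 or B6 male 2, 3 or 4, at adjusted p of 0.0585 to 0.0793. With limma on log2(FPKM + 0.1), a scale that shrinks the folds of low genes, the fold also fell under the threshold in B6 for lnc2474 (0.98) and lnc5921 (0.92) and in CAST for lnc2474 (0.43), lnc1579 (0.43) and lnc2485 (0.78), as it did for lnc11421 in B6 (-0.91) and lnc13511 in CAST (-0.83).

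**Figure D2:**
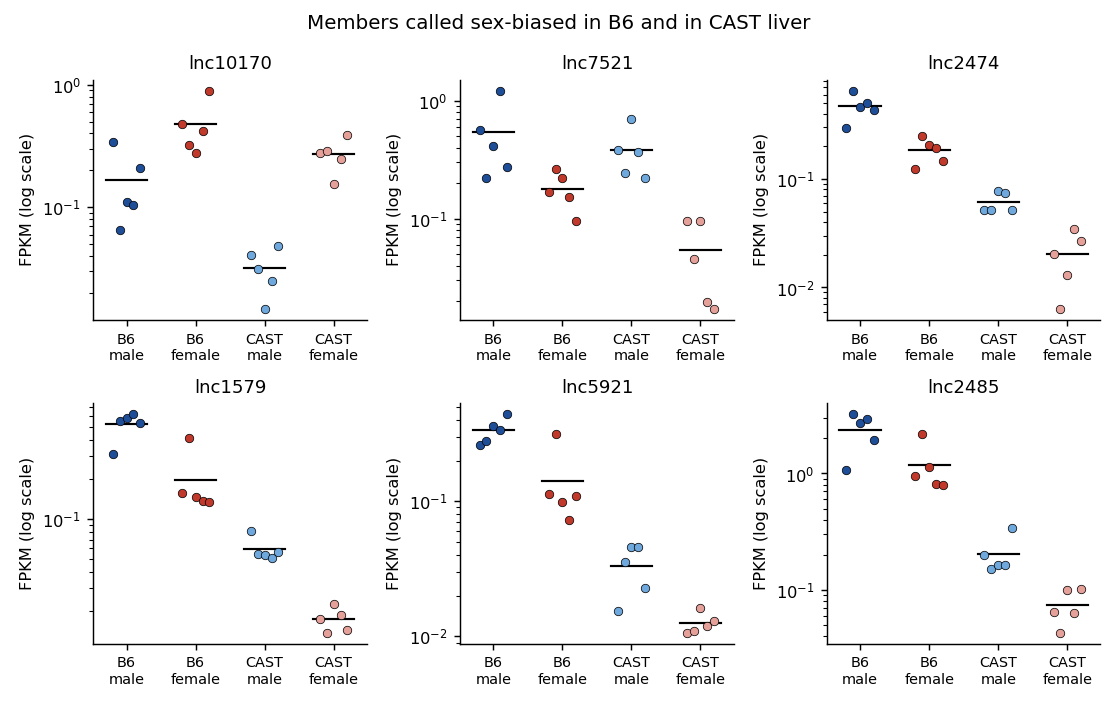
FPKM on a log axis in each of the 20 livers for the 6 antisense lncRNAs called sex-biased in both strains, with a point per liver and a line at the group mean. In lnc2474, lnc1579, lnc5921 and lnc2485 both CAST groups sit below both B6 groups, with group means of 2.38 and 1.18 FPKM in B6 and 0.203 and 0.0743 in CAST males and females for lnc2485.

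Direction was compared between the strains over the 322 genes. The signs matched in 204 genes (63.4%), against 55.9% over all 22605 genes, and no test was made of this. In the same FPKM range the signs matched in 56.0% of intergenic lncRNA genes and 58.9% of protein-coding genes. Among other antisense genes they matched in 78.6% at 1 FPKM or more and in 57.1% under 0.1 FPKM. Of the 21 genes male-biased in B6, 17 had the same sign in CAST, with a median log2 fold change there of 0.65 against 1.35 in B6. Of the 11 male-biased in CAST, all 11 had the same sign in B6, with a median of 1.02 against 1.63. The 4 female-biased in B6 had the same sign in CAST, with a median of -0.62 against -1.58. Of the 8 female-biased in CAST, 4 had the same sign in B6, and the median there was -0.00. In all, 21 of 25 B6 calls and 15 of 19 CAST calls had the same sign in the other strain, and over all genes 474 of 587 and 406 of 485 did. The calls of 1 strain chose each list, while the FPKM rule used the livers of both.

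**Figure D3:**
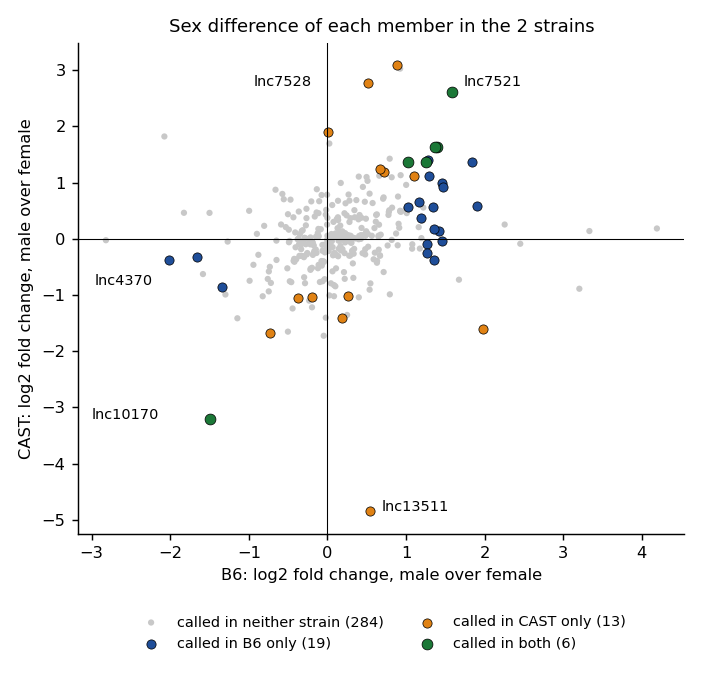
Log2 fold change, male over female, in B6 (horizontal) and in CAST (vertical) for the 322 antisense lncRNAs tested in both strains, with called genes in colour. The 6 genes called in both lie in the upper right, except lnc10170 at -1.5 and -3.21, and lnc13511 stands alone at 0.54 and -4.85.

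B6 female 2 bore on these counts. In the 11 genes male-biased in CAST, this liver was the highest B6 female in 9, and its summed FPKM over them was 9.18, against 2.71 to 3.96 in the other B6 females and 6.15 to 10.6 in the B6 males. The call used CAST livers alone, but the FPKM rule used all 20, and 5 of the 11 were under 0.1 FPKM in both CAST groups and so on the list through B6. In the 8 genes female-biased in CAST it was highest in 0, with a sum of 2.80 against 2.71 to 4.38. Without it, 38 of the 324 genes were called in B6, 34 as male-biased and 4 as female-biased, and all 25 genes called with it were among them. The background then was 2.73% of 25646 genes. Without B6 female 3, by contrast, 14 genes were called. Leaving out B6 female 2 raised the log2 fold change of lnc1579 from 1.40 to 1.88, of lnc5921 from 1.25 to 1.80 and of lnc14713 from 1.46 to 2.06. Its hepatocyte, Kupffer cell and lymphocyte marker sums, 32252, 72.4 and 3.70 FPKM, were each the highest of the B6 females, as was that of the red blood cell markers, 5.42 against 2.83 to 4.90. Its endothelial sum, 28.3, was the lowest, against 29.9 to 36.4, and the part of these was not tested.

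Strain differences were far more frequent than sex differences in these genes. In males, 163 of 323 were called, 105 as higher in B6 and 58 as higher in CAST. Over all 25779 genes, 23.8% were called, 13.4% as higher in B6 and 10.4% as higher in CAST, against 50.5%, 32.5% and 18% here. In females, 157 were called, 94 as higher in B6 and 63 as higher in CAST. The background was 24.4%, with 13.9% and 10.4%, against 48.6%, 29.1% and 19.5% here. The rule on the mean FPKM fixed part of these counts: a gene that reached a mean of 0.1 through the livers of 1 strain only had to differ between the strains. Among the 152 genes at 0.1 FPKM or more in all 4 groups, 27 were called higher in B6 and 14 higher in CAST in males, and 21 and 12 in females. Among the 69 genes below 0.1 in both CAST groups only, 60 of 67 tested were called higher in B6 in males and 57 in females, and among the 44 below 0.1 in both B6 groups only, 35 and 38 of 39 were called higher in CAST. Intergenic lncRNA genes of the same range had calls in 49.5% of 831 in males, 22.3% higher in B6 and 27.2% higher in CAST. Reads of the strains were mapped to different genomes, so a difference in level and one in mapping cannot be told apart.

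In both sexes 85 genes were called higher in B6 (background 10.1%) and 53 higher in CAST (background 8.13%). These 138 genes were 84.7% of the male list and 87.9% of the female list, against 76.6% and 74.9% over all genes. All 138 had the same direction in both sexes, as did 4697 of the 4707 genes called in both sexes over all genes. The signs matched in 281 of 323 genes (87.0%), against 75.4% of all genes. Here too the rule fixed part of the counts, and among the 152 genes at 0.1 FPKM or more in all groups 18 were called higher in B6 and 11 higher in CAST in both sexes, with matching signs in 121 (79.6%). The median log2 fold change, B6 over CAST, was 0.42 in males and 0.32 in females, against 0.07 and 0.00 over all genes. Kupffer cell markers also differed, with sums of 28.7 to 72.4 FPKM in B6 livers and 9.70 to 42.0 in CAST livers. The 4 proliferation markers had sums of 3.48 to 4.33 in CAST livers and 0.281 to 0.758 in B6 livers other than B6 female 1, which had 3.96. These 4 did not weigh alike in the sum. Over all 20 livers the median was 1.99 FPKM for Cdk1 and 0.0721, 0.0928 and 0.0364 for Mki67, Top2a and Ccnb1. Lymphocyte marker sums did not overlap between the strains, at 1.01 to 3.70 FPKM in B6 and 0.350 to 0.887 in CAST. The sum of the red blood cell markers, which is that of Alas2, was 26.9 to 36.5 FPKM in B6 males, 2.83 to 5.42 in B6 females and 1.09 to 3.25 in CAST livers. The part of these in the strain differences was not tested.

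Several antisense lncRNAs were at or near 0 in CAST liver. In lnc10149 on chromosome 11, B6 males had 0.687, 0.702, 0.522, 0.659 and 0.574 FPKM and B6 females 0.670, 0.643, 0.566, 0.412 and 0.507. The CAST males had 0.00766, 0.00399, 0, 0 and 0 FPKM and the CAST females 0.00176, 0.00871, 0, 0 and 0. The 5 CAST males held 3 reads in all and the 5 CAST females 5, against 1051 and 608 in B6. Scaled to total counts, B6 was 262-fold higher in males (exact 95% interval 89.6 to 1275) and 204-fold higher in females (86.8 to 630), intervals that cover counting error only. The adjusted p was 5.97e-16 in males and 2.59e-16 in females. In lnc9787, on the same chromosome, the B6 livers stood at 0.113 to 0.289 FPKM, and 2 reads were counted in the 5 CAST males and 2 in the 5 CAST females, a ratio of 122 in males (33.5 to 1013) and 155 in females (42.3 to 1289).

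The other genes of this kind had a trace of reads in CAST. In lnc11596 on chromosome 13, B6 livers stood at 0.579 to 1.90 FPKM and CAST livers at 0 to 0.0352, with 4 and 3 reads in CAST males and females. The gene lnc14740 on chromosome 19 had 1.85, 1.61, 2.01, 1.43 and 1.98 FPKM in B6 males and 2.01, 2.15, 1.75, 1.43 and 1.79 in B6 females. In CAST it had 0.0239, 0.0249, 0.0437, 0 and 0.0236 FPKM in males and 0.0991, 0.0136, 0.0759, 0.0829 and 0.0517 in females. No CAST liver came near a B6 liver, and the log2 fold change was 6.07 in males (SE 0.33, adjusted p = 5.36e-15) and 4.69 in females (SE 0.27, adjusted p = 1.26e-14). In lnc1694 on chromosome 2 the values were 5.72 (adjusted p = 1.15e-12) and 5.27 (adjusted p = 4.86e-12), and in lnc3224 on chromosome 4 they were 4.99 (adjusted p = 1.62e-07) and 4.79 (adjusted p = 5.56e-08).

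The reverse was as clear in other genes. In lnc3173 on chromosome 4, CAST males stood at 1.37, 1.12, 1.14, 0.877 and 1.31 FPKM and CAST females at 1.08, 1.24, 1.19, 0.822 and 1.2. All 5 B6 males were listed at 0, and the B6 females stood at 0, 0, 0.0662, 0.0299 and 0. With 217 reads in CAST males and 0 in B6 males, CAST was at least 96.5-fold higher, taking 3 reads over the group as the limit that a count of 0 allows. In females, 317 reads against 3 gave a ratio of 63.1 (21.4 to 308). In lnc198 on chromosome 1, CAST males had 0.977, 0.973, 0.877, 0.891 and 0.931 FPKM and B6 males 0.0236, 0.0388, 0.101, 0.0639 and 0.0472. CAST females had 1.30, 0.890, 0.677, 0.935 and 0.849 FPKM and B6 females 0, 0, 0.0228, 0.0206 and 0. Neither sex had any overlap of the strains, and the log2 fold change, B6 over CAST, was -4.09 in males (SE 0.31, adjusted p = 8.28e-12).

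In lnc13287 on chromosome 16, CAST livers stood at 0.179 to 0.431 FPKM and B6 livers at 0 to 0.0298. The 5 B6 males held 2 reads, a ratio of 236 (64.9 to 1958), and all 6 reads of the B6 females came from B6 female 2, a ratio of 37.0 (16.8 to 102). In lnc5503 on chromosome 6 the reads were 3 in B6 males and 4 in B6 females, with ratios of 73.0 (24.5 to 357) and 40.9 (15.8 to 151). In lnc102 on chromosome 1, with 2 reads in B6 males and 1 in B6 females, the ratios were 54.1 (14.5 to 454) and 69.2 (12.2 to 2758). The variable gene lnc14073 was also higher in CAST, with log2 fold changes of -3.55 in males (SE 1.03, adjusted p = 0.00689) and -5.38 in females (SE 1.15, adjusted p = 0.000382). The male call was lost with limma on log2(FPKM + 0.1), at -1.39 (adjusted p = 0.0619), and CAST male 3 and CAST females 2 and 5 lay within the B6 range.

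**Figure D4:**
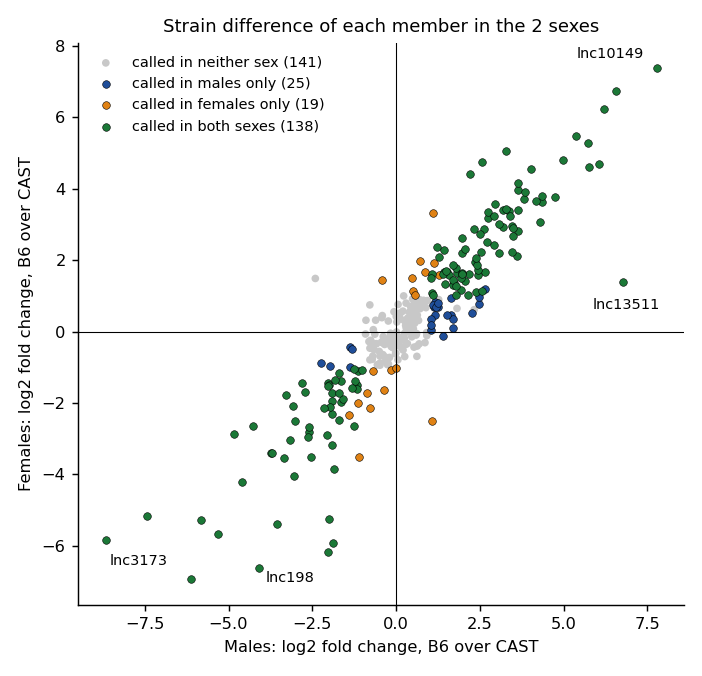
Log2 fold change, B6 over CAST, in males (horizontal) and in females (vertical) for the 323 antisense lncRNAs in the fit of all 4 groups, with called genes in colour. Most genes follow the diagonal, while lnc13511 lies off it at 6.77 in males and 1.39 in females.

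The sex difference itself differed between the strains in 7 of 323 antisense lncRNAs (2.17%), against a background of 2.28%. This interaction is the log2 fold change of male over female in B6 minus that in CAST, called at an adjusted p under 0.05 with no fold threshold. It was positive in lnc13511, lnc12874, lnc10227 and lnc8791 and negative in lnc12679, lnc12584 and lnc4370. The share was 1.44% in 831 intergenic lncRNA genes and 2.42% in 3469 protein-coding genes of the same FPKM range. Without B6 female 2, 14 genes were called, these 7 among them, against a background of 2.68%, and without B6 female 5, 11 were called.

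The largest interaction was that of lnc13511 on chromosome 16. B6 males had 0.454, 0.354, 0.295, 0.280 and 0.299 FPKM and B6 females 0.218, 0.229, 0.228, 0.211 and 0.298. CAST males had 0, 0.00439, 0.00385, 0 and 0 FPKM and CAST females 0.0719, 0.137, 0.0298, 0.117 and 0.0669. In CAST the males were at or near 0 and all 5 females had reads, while in B6 only female 5 reached the range of the males. The CAST males held 3 reads in all and the CAST females 139, a ratio of 30.9 (exact 95% interval 10.4 to 152). In B6 the log2 fold change, male over female, was 0.54 (SE 0.18, adjusted p = 0.0830). The interaction was 5.37 (SE 0.62, adjusted p = 3.62e-06).

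In lnc4370, lnc12584 and lnc12874 a sex difference was called in B6 and not in CAST, and the interaction tests the difference between these. In CAST, lnc4370 stood at 0.597, 0.595, 0.595, 0.747 and 0.587 FPKM in males and 0.71, 0.628, 0.754, 0.789 and 0.815 in females. CAST livers of both sexes lay above all B6 livers, and B6 males were lowest. The interaction was -1.34 (SE 0.29, adjusted p = 0.0109). In lnc12584 on chromosome 15, B6 males had 0.0248, 0.0175, 0.00506, 0.0144 and 0.00946 FPKM and B6 females 0.0464, 0.0643, 0.0684, 0.0556 and 0.0821. CAST males had 0.232, 0.273, 0.341, 0.353 and 0.319 FPKM and CAST females 0.397, 0.381, 0.395, 0.321 and 0.385. Each B6 female lay above each B6 male, all far below CAST, and the interaction was -1.61 (SE 0.37, adjusted p = 0.0169). It was -0.27 with limma on log2(FPKM + 0.1) (adjusted p = 0.485) and -1.71 with thinned counts (adjusted p = 0.210).

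In lnc12874, on chromosome 15 as well, B6 males stood at 0.370, 0.30, 0.40, 0.415 and 0.469 FPKM and B6 females at 0.0857, 0.137, 0.119, 0.182 and 0.248. CAST males stood at 0.115, 0.0987, 0.0278, 0.142 and 0.0334 FPKM and CAST females at 0.0920, 0.123, 0.0716, 0.0939 and 0.137. B6 males lay above all other livers. The interaction was 1.75 (SE 0.42, adjusted p = 0.0244), and it was lost without B6 female 3 (adjusted p = 0.0556) and without CAST female 2 (adjusted p = 0.0576), with thinned counts (adjusted p = 0.147) and with limma on log2(FPKM + 0.01) (adjusted p = 0.0784).

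The other interactions were smaller or rested on few reads. In lnc10227 on chromosome 11, B6 males had 0.535, 0.506, 0.533, 0.454 and 0.464 FPKM and B6 females 0.356, 0.363, 0.376, 0.445 and 0.475. CAST males had 0.20, 0.366, 0.365, 0.346 and 0.242 FPKM and CAST females 0.447, 0.537, 0.394, 0.557 and 0.484. On average males were the higher sex in B6 and females in CAST, with log2 fold changes of 0.33 in B6 and -0.70 in CAST and an interaction of 1.04 (SE 0.22, adjusted p = 0.0107). For lnc8791 on chromosome 10, the log2 fold changes were 0.67 in B6 and -0.30 in CAST, with an interaction of 0.98 (SE 0.23, adjusted p = 0.0175), which was lost with thinned counts (adjusted p = 0.0562) and with limma at both pseudocounts (adjusted p = 0.0983 and 0.101). In lnc12679 on chromosome 15, which the rule for named genes did not reach, the log2 fold changes were -1.5 and 0.46, with an interaction of -1.97 (SE 0.49, adjusted p = 0.0301) on B6 counts of 2 to 12 per liver.

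**Figure D5:**
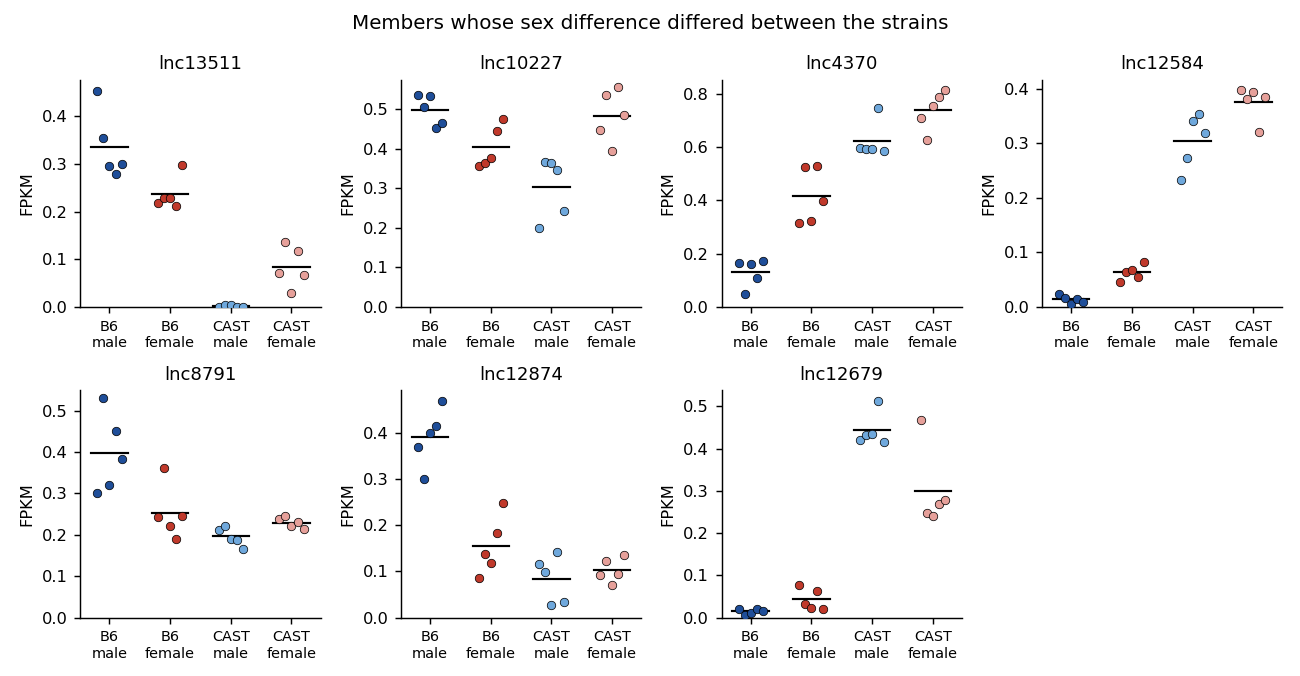
FPKM in each of the 20 livers for the 7 antisense lncRNAs whose sex difference differed between the strains, with a point per liver and a line at the group mean. In lnc13511 the CAST males sit at 0 to 0.00439 and the CAST females at 0.0298 to 0.137, and in lnc12874 the B6 males, at 0.30 to 0.469, sit above the other groups.

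Every gene can be placed by these tests. Of the 330, 38 were called sex-biased in at least 1 strain, against 932 of 27807 genes (3.35%). The FPKM rule bears on this count. Among the 152 genes at 0.1 FPKM or more in all groups, 5 were called sex-biased in B6 and 5 in CAST. Of 323, 182 (56.3%) were called between strains in at least 1 sex, against 29.9% of 25779 genes, and among the 152 genes at 0.1 FPKM or more in all groups 45 (29.6%) were. In no comparison were 145 called (43.9%), against 70.5% of all genes, and of the 152, 104 (68.4%). The 152 leave out every gene low in 1 strain, a filter that the shares over all genes lack. The shares of the 152 therefore cannot show whether the set is like all genes. Counts for 8 genes were listed for 1 strain only: lnc10853, lnc10858, lnc10868, lnc10869, lnc3126 and lnc8177 for CAST and lnc10887 and lnc1023 for B6. Of these, lnc10869 was in the fit of all groups, its counts set to 0 in B6 because its FPKM is 0 in all B6 livers.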

How the data were processed

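PolyA liver RNA of 20 mice was sequenced with a kit that keeps strand. B6 reads were mapped by the authors with TopHat2 to the mouse genome build mm9 and CAST reads to a CAST version of it, and uniquely mapped reads were assigned to exons with featureCounts. The deposited counts are whole reads per gene and liver, in a table for each strain, and differ in total between livers. The FPKM values deposited by the authors scale these by exon length and depth and come in 1 table for all 20 livers. Columns of fold changes and p-values in the count tables hold the authors' own comparisons and were not used. Nor were 24 further columns, which hold scaled values and group medians. Groups follow the library titles, and the conflicting strain entries were not used. Replicates are separate mice.

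The antisense genes, gene classes and marker lists were chosen with earlier results of these data known. Sex was tested within each strain (25690 genes for B6, 24722 for CAST) and strain and the interaction in a fit of all 20 livers (25779 genes), with TMM scaling and the quasi-likelihood test of edgeR 4.0.16 (R 4.3.3) on the counts, over all genes with a read and with Benjamini-Hochberg adjustment over all of them. The fit of all livers held the 22605 genes of both tables and those of 1 table with an FPKM of 0 throughout the other strain, given as 0 reads there, and left out 2028 others. A call needed a fold above 2 and an adjusted p under 0.05, and for the interaction the adjusted p alone. Sums of squares and components used log2(FPKM + 0.1). Ratios of summed reads carry exact 95% intervals that cover counting error only. A fold against a group without reads was computed against 3 reads over the group.

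Genes were named by a rule, provided their mean count reached 10 over the livers compared: all called in both strains, up to 6 per direction with the largest fold change in each strain and between strains in both sexes, the 6 smallest interaction p, the 3 nearest each FPKM limit on either side, and the 5 lowest and 5 highest coefficients of variation. The gene lnc12679 and Cyp2b9 were added after their values were seen.

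Alternatives were DESeq2 size factors and library size in edgeR, DESeq2 1.42.0, a filter on low counts, limma 3.58.1 on log2 FPKM with pseudocounts of 0.1 and 0.01, thinned counts, a block on the replicate number, a lower limit of 0.2 FPKM, no fold threshold, and each liver left out. The edgeR quasi-likelihood test with TMM scaling was tried on simulated counts for sex in each strain and for strain in males. The interaction and the alternative fits had no such trial. The rest was done with scipy 1.17.1, numpy 2.4.6, matplotlib 3.10.9 and pandas 2.3.3 under Python 3.11.15.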

Additional observations from a re-analysis of the deposited data

Results flagged for a closer look

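Single livers lay far from the other 4 of their group in 26 of 184 groups tested, 176 of them from 44 named genes and 8 from sums and shares over all antisense genes, and all 26 were in named genes. Chance alone flags about 1 in 20 groups of well-measured values, a rate that does not apply to genes named for their spread or near 0: 5 of the 26 were in the genes with the highest coefficients of variation, and in 4 the other livers were at 0. A liver counted as such when its gap to the nearest of the others exceeded Dixon's 95% critical value. There were 12 in B6 females, 3 in B6 males, 6 in CAST males, 5 in females of CAST, and no explanation was tested.

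B6 female 2 was the outlying liver in 8 genes. It was the highest B6 female in lnc1579 at 0.412 FPKM, lnc5921 at 0.313, lnc2485 at 2.20, lnc14713 at 0.334, lnc7528 at 3.48, lnc6048 at 0.597 and lnc13287 at 0.0298, and in lnc5503 it was the lowest, at 0. B6 female 5 was the highest of its group in lnc13511 at 0.298 FPKM and in lnc8393 at 0.794, and stood apart in lnc14267 at 0.159. B6 female 4 was the only one with reads in lnc102, at 0.0197 FPKM. Among B6 males, male 1 was lowest in lnc1579 at 0.313 FPKM, and male 2 was highest in lnc1343 at 1.02 and in lnc14073 at 0.0542.

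In CAST males, male 5 was highest in lnc2485 at 0.337 FPKM and in lnc7528 at 1.41 and stood apart in lnc14713 at 0.0571. Male 1 was highest in lnc1579 at 0.0810 FPKM, male 4 highest in lnc4370 at 0.747, and male 3 stood apart in lnc8393 at 0.0195. In CAST females, female 1 alone had reads in lnc9787, at 0.00389 FPKM, and in lnc11596, at 0.0311. Female 2 was highest in lnc10149 at 0.00871 FPKM, female 4 lowest in lnc12584 at 0.321, and female 3 stood apart in lnc14713 at 0.0188.

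The sex difference differed between the strains in 7 of 323 genes (2.17%) by the interaction term of the edgeR fit, against 2.28% of all genes. On the log2 scale, the sex difference of B6 minus that of CAST was 5.37 in lnc13511, 1.75 in lnc12874, 1.04 in lnc10227, 0.98 in lnc8791, -1.34 in lnc4370, -1.61 in lnc12584 and -1.97 in lnc12679.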

How the results depend on the processing

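No direction of a named gene's call was reversed under any alternative run. Several counts of calls moved by over 1.5 times. With limma on log2(FPKM + 0.1), 9 genes were called sex-biased in B6, 5 in CAST and 0 in both (2 had an unadjusted p under 0.05 and a fold above 2 in both, and 23 at any fold), with log2(FPKM + 0.01) 9 in CAST, 2 in both and 4 with an interaction, and, with genes whose mean FPKM fell below 0.1 left out first, 13 in B6, 5 in CAST, 1 in both and 14 with an interaction. The interaction count was 13 by DESeq2 and 3 after thinning all livers to the smallest total. With a lower limit of 0.2 FPKM, fewer genes were left, and 10 were called in B6, 11 in CAST, 3 in both, 79 between strains in males, 74 in females and 4 with an interaction. Leaving out 1 liver gave 14 to 38 genes in B6, 15 to 21 in CAST, 4 to 8 in both, 155 to 165 between strains in males, 150 to 158 in females and 6 to 14 with an interaction, with B6 female 2 left out giving 38 in B6 and 14 interactions, B6 female 3 left out 14 in B6, and B6 female 5 left out 11 interactions. Fits with a replicate block called 34, 24, 8, 163, 157 and 10 genes, in the same order, and with a filter on low counts as well, 25, 16, 8, 146, 141 and 9. Pairing by number was described by correlating deviations from the group means over 12634 genes. Of 5 same-numbered pairs, the correlation was above 0.1 in 1 (B6 males and females), 2 (CAST males and females), 0 (males of both strains) and 2 (females of both strains). In that order the same-numbered pairs averaged 0.0518, 0.125, -0.0270 and 0.0698. Pairs of other numbers averaged -0.0129, -0.0312, 0.00728 and -0.0177. Whether the livers are paired was not tested, and neither was the cause of the changes in the counts. Low counts limit what a liver can show, since 57 genes averaged under 10 reads.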
